A study of Mus musculus with 34 samples.

Results

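Otx2, Pou3f1, Zic2, Zic5, Foxd3, Grhl2, Sall2 and Tcf15 encode transcription factors that are known for the formative epiblast, the state between naive pluripotency and lineage commitment. They were chosen by gene symbol, which found 8 of the 24103 entries of the table of gene levels, each a single entry. All 8 were among the 14595 genes that passed the filter on low values, at least 1 FPKM in at least 3 libraries. FPKM are fragments scaled by transcript length and by the number of fragments of a library.

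Naive embryonic stem cells match the epiblast of the blastocyst before implantation. When the naive programme shuts down, the cells gain the ability to respond to signals for the germ layers, and OTX2 and POU3F1 (also called OCT6) are factors that bind newly opened enhancers in this step. Epiblast-like cells made in culture pass through this state briefly, whereas epiblast stem cells, kept in Activin and FGF, are a primed culture that resembles a later epiblast.

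The study sequenced RNA from mouse cells, with 34 libraries divided over 9 groups. Cells of the embryonic stem cell line CBMS1 (strain label CBA/MsM) were kept in 2i/LIF (ESC, day 0, n = 3), turned into epiblast-like cells over 2 days (EpiLC, day 2, n = 5), and then aggregated as embryoid bodies (EB) in GK15 medium with no added factors, which by the labels gives neurectoderm (days 3, 4, 5 and 6, n = 3 each, and day 7, n = 5). All of days 0 to 7 come from this line. Epiblast stem cells (EpiSC, n = 3) were female cells of the line EpiSC7, labelled C57BL6, kept in Activin/FGF on fibroblast feeders, at passage 6 in 2 libraries and passage 7 in 1. Embryonic fibroblasts (MEF, n = 6) came from C57BL6 embryos of 12.5 days, in 2 cultures sampled at passages 0, 1 and 2. EpiSC therefore differ from day 2 in strain, line, medium and feeders, and these cannot be told apart. Title dates were read as tying 20 libraries of days 2 to 7 to 4 culture courses, which no label names. Of these, courses B, C and D were sampled on every day. The labels give 2 sequencing projects, with all ESC and MEF in project A and all EpiSC in project B. Beyond the dates and passages nothing says whether libraries came from separate cultures, so p-values measure the spread between these libraries, which may be technical.

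Library facts touch the values below in a few places. Between 11303 and 12212 genes reached 1 FPKM per library, and the relative depth estimated from the steps of low FPKM values ran from 0.850 to 1.19, although at most 46.1% of low values lay in step. Replicate 3 of day 3 stood apart with a summed FPKM of 990727, against 485696 to 734764 in the other libraries. In 9 of the 25 libraries of days 0 to 7 the cell type field names another stage than the title, and the title was followed. As groups, days 0, 2 and 7 followed the titles in their naive and neural progenitor markers. Of 12 naive genes 11 were called lower at day 2 than at day 0 and none higher. Of 8 neural progenitor genes 8 were called higher at day 7 than at day 2. In these comparisons 16.8% and 26.1% of all tested genes were called in either direction, by the rule given below. Such counts check no single library and no day between days 2 and 7. Day 7 was not neural alone in its markers. Mean T stood at 74.3 FPKM there and mean Meox1 at 50.0 FPKM, against 2.53 and 0.253 FPKM at day 2. The lists were also chosen with earlier results of these data known. In whole-culture RNA, fewer cells of a type and less RNA per cell cannot be told apart.

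On build mm9, as deposited, 4 of the 8 genes lie on chromosome 14. Otx2 spans 49277352 to 49287319 and Sall2 52930852 to 52948345. Zic5 (122858382 to 122864880) and Zic2 (122874606 to 122879550) are transcribed away from each other, with 9725 bases between them. The entry 2610035F20Rik lies in that gap, 4718 bases from Zic5 and 184 from Zic2. Foxd3 (99322990 to 99325362) and Pou3f1 (124334889 to 124337899) lie on chromosome 4, Grhl2 (37162791 to 37293323) on chromosome 15 and Tcf15 (151969345 to 151974832) on chromosome 2. No other entry overlapped any of them. The antisense neighbour Otx2os1, 1643 bases from Otx2, did not exceed 0.817 FPKM in any library.

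Promoter sequences from RefSeq were at hand for 4 of the 8 genes (Foxd3, Otx2, Sall2 and Zic5). The 250 bases before each start, on GRCm38.p6 and read 5′ to 3′ on the strand of the gene, were searched on both strands for ATGCAAAT (the POU octamer), TAATCC (OTX), AACCNGTT (GRHL) and CAGCAGG (ZIC). Zic5 and Foxd3 are shown because they lost expression on the same day of the course. A start of Otx2 is shown because it held the only match among the 8 starts searched. It is TAATCC on the opposite strand, in capitals as GGATTA, 211 bases before the start. The 3 sequences lie at chr4:99656049-99656298 (+ strand), chr14:122465659-122465908 (- strand) and chr14:48665110-48665359 (- strand).
Foxd3: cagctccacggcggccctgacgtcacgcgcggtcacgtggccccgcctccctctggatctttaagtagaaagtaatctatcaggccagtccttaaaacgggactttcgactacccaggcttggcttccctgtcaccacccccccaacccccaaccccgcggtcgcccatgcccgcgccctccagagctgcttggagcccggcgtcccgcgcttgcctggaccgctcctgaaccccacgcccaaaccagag
Zic5: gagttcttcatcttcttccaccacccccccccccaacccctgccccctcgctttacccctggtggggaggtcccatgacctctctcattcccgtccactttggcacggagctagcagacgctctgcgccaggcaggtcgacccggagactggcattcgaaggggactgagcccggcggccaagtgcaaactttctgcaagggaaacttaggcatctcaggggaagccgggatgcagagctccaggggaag
Otx2: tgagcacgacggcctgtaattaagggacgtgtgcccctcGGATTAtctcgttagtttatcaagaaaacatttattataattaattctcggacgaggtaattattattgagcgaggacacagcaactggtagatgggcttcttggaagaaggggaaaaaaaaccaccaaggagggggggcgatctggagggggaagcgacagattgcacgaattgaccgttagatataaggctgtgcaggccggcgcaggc
The base composition differed between them, with 65.6% G and C for Foxd3, 62.4% for Zic5 and 48.4% for the Otx2 start. Among 32851 promoter windows of the same length, 6.25% held TAATCC, 1.60% the octamer, 1.79% the GRHL letters and 8.44% the ZIC letters. A match is a description of these letters, not a bound site.

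The 8 genes did not share a single pattern over the course. Otx2, Pou3f1, Grhl2 and Sall2 rose from low levels between day 0 and day 2, whereas Zic2, Foxd3 and Tcf15 stood at about the same level on both days. In the moderated F test of limma over days 0 to 7 (Benjamini-Hochberg adjusted p under 0.05, with group means spanning at least 1 on the log2 scale), all 8 were called, with 54.6% of all tested genes called. The range of group means on the log2(FPKM + 1) scale ran from 1.59 for Tcf15 to 4.67 for Pou3f1. Mean levels peaked on day 2 for Pou3f1 and Grhl2, on day 3 for Otx2, on day 4 for Zic2 and Zic5, on day 6 for Tcf15, and were highest on day 0 for Foxd3 and on day 7 for Sall2.

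**Figure D1:**
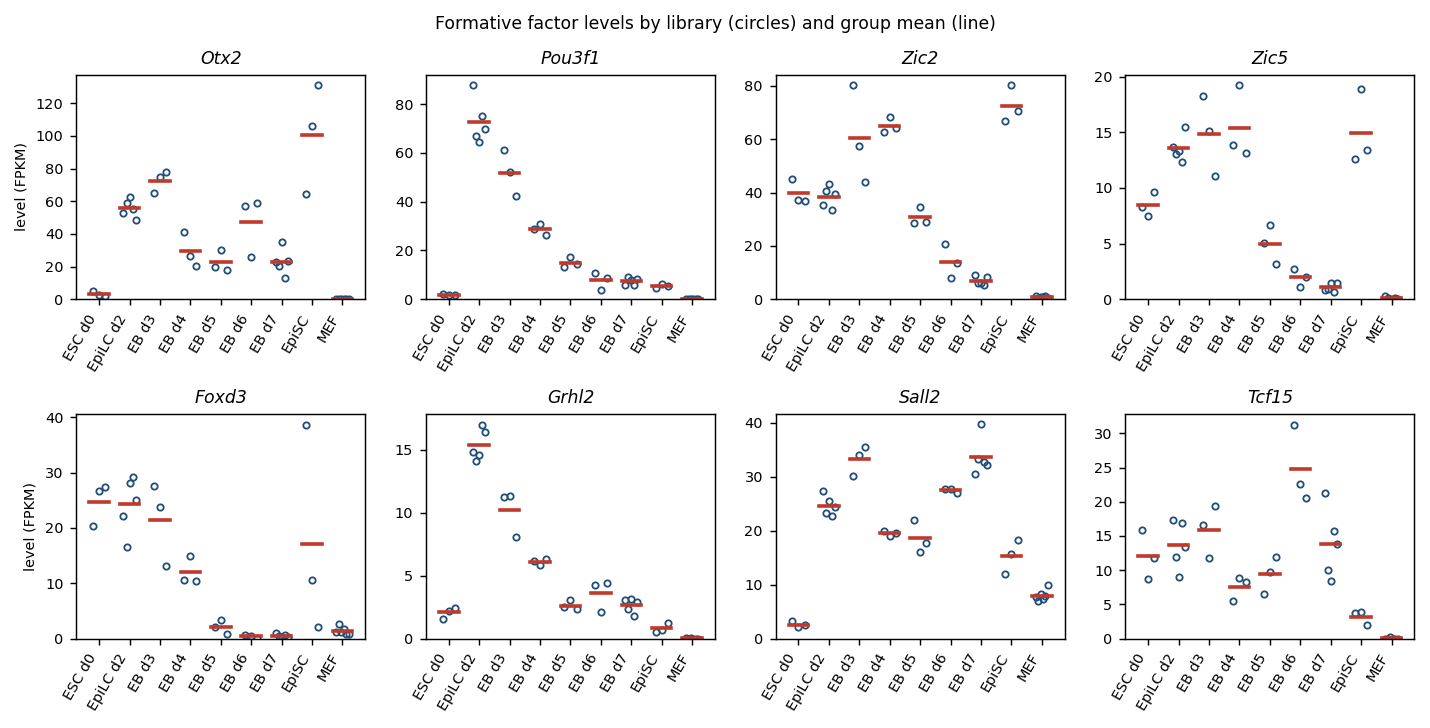
Levels of the 8 factors in FPKM (linear axis, own scale in each panel) in every library, by group. Circles are libraries and lines are group means. Pou3f1 and Grhl2 peak at day 2, Zic2 stays near 39 FPKM at days 0 and 2 and near 72.5 FPKM in EpiSC, and Foxd3 in EpiSC spreads from 2.05 to 38.7 FPKM.

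The change from day 0 to day 2 asks which factors come on as the naive state is left. Pou3f1, a POU-domain factor, had 2.25, 1.76 and 1.66 FPKM in the 3 ESC libraries and 87.7, 66.9, 64.4, 75.3 and 69.9 FPKM in the 5 EpiLC libraries. Otx2, a homeodomain factor, had 4.84, 2.31 and 2.18 FPKM at day 0 and 52.8, 58.6, 62.5, 55.3 and 48.8 FPKM at day 2. In both genes the groups are far apart and no library of one falls within the range of the other. Grhl2, a Grainyhead factor that opens enhancers of epithelial genes, rose from between 1.56 and 2.43 FPKM to between 14.1 and 17.0 FPKM. Sall2, a zinc-finger factor of the Spalt family, rose from between 2.10 and 3.17 FPKM to between 22.7 and 27.4 FPKM. Groups did not overlap for these 2 genes either, as in 56% of all tested genes.

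With all groups fitted in limma on log2(FPKM + 1), calls required an adjusted p (Benjamini-Hochberg) under 0.05 together with a change of 1 or more on that scale. Of the 8 factors, 4 were called higher at day 2 and none lower, with 16.8% of all tested genes called, 7.69% higher and 9.09% lower. The log2 differences were 4.67 for Pou3f1 (SE 0.19, adjusted p = 3.54e-19), 3.84 for Otx2 (SE 0.26, adjusted p = 1.1e-13), 2.85 for Sall2 (SE 0.12, adjusted p = 9.0e-19) and 2.42 for Grhl2 (SE 0.15, adjusted p = 2.2e-14). The log2(FPKM + 1) scale understates the change of genes that start low. The median difference of the 8 genes was 1.52, against 0.02 over all tested genes.

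The zinc-finger factor Zic2, which is known to bind enhancers in stem cells and in the neural plate, was as high in naive cells as in epiblast-like cells. It had 45.2, 37.4 and 36.8 FPKM at day 0 and between 33.5 and 43.3 FPKM at day 2, with a log2 difference of -0.05 and a 95% interval from -0.45 to 0.36. Its relative Zic5 had 8.33, 7.48 and 9.62 FPKM at day 0 and 13.6, 13.0, 13.3, 12.3 and 15.5 FPKM at day 2. The Zic5 libraries did not overlap and the log2 difference was 0.62 (SE 0.19, limma, Benjamini-Hochberg adjusted p = 0.00602), below the size required for a call. Foxd3, a forkhead factor needed for pluripotent cells and later for the neural crest, had 20.3 to 27.4 FPKM at day 0 and 16.6 to 29.3 FPKM at day 2. Its difference of -0.04 came with a wide interval, from -0.92 to 0.83. Tcf15, a basic helix-loop-helix factor known to prime stem cells for differentiation and to act in paraxial mesoderm, differed by 0.17 (interval from -0.33 to 0.67).

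**Figure D2:**
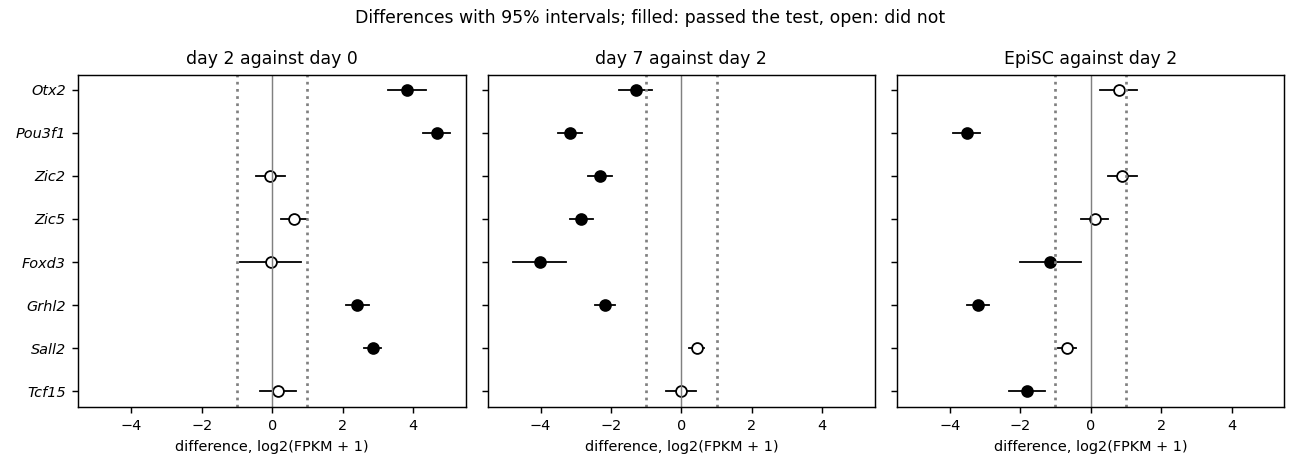
Differences of the 8 factors on the log2(FPKM + 1) scale with 95% intervals from limma, for day 2 against day 0, day 7 against day 2 and EpiSC against day 2. Filled points passed the test, open points did not, and dotted lines mark a difference of 1 in either direction. In the first panel 4 factors lie to the right, in the second 6 lie to the left, and in EpiSC Otx2 and Zic2 lie at 0.79 and 0.90.

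Most other genes listed for the formative epiblast rose as well. This list, like all lists here, was chosen with earlier results of these data known, so its counts are a description. Of its 14 genes, 13 were called higher at day 2 and none lower, with 7.69% of all tested genes called higher and 9.09% lower. Their median log2 difference was 3.59. They include Dnmt3b and Dnmt3a, which place new DNA methylation, Lin28a, an RNA-binding protein that blocks let-7, and Sox4. Lin28a rose from 8.49 ± 2.37 (SD, n = 3) to 218 ± 22.4 FPKM (SD, n = 5). Among the epithelial genes of the GRHL2 programme, 5 of 12 tested were called higher and none lower. Not all of the others rose, and the lowest difference, -0.91 with no overlap between the days, was just under the size threshold. Esrp1, an epithelial splicing factor, rose from 0.136 ± 0.0537 (SD, n = 3) to 54.6 ± 4.62 FPKM (SD, n = 5), and the tight junction gene Cldn7 from 0.988 ± 0.157 to 54.4 ± 13.1 FPKM in the same libraries.

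Family relatives of the 8 factors moved in both directions at this step. Of 20 listed paralogues 16 were tested, and 1 was called higher and 3 lower. Grhl1 rose from 1.60 ± 0.438 (SD, n = 3) to 4.58 ± 0.469 FPKM (SD, n = 5), while Grhl3 fell from 9.65 ± 1.58 to 1.86 ± 0.315 FPKM. Sall3 fell from 7.50 ± 1.26 to 0.929 ± 0.434 FPKM, while its relative Sall2 rose. Foxd1 fell from 6.58 ± 0.783 to 0.467 ± 0.283 FPKM, while Foxd3 stayed within the interval given above.

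On the first day of aggregation, day 3 against day 2, none of the 8 factors was called, with 1.87% of all tested genes called. An unadjusted p under 0.05 in limma was met by 35% of all tested genes and by 4 of the 8, Zic2, Sall2, Grhl2 and Pou3f1. Zic2 differed by 0.60 (Benjamini-Hochberg adjusted p = 0.0271), Sall2 by 0.42 (adjusted p = 0.0127), Grhl2 by -0.56 (adjusted p = 0.00975) and Pou3f1 by -0.49 (adjusted p = 0.0616), each under the size threshold. The 3 libraries of day 3 did not agree on Zic2, with 80.3, 57.4 and 44.0 FPKM. The lowest was replicate 3, the library with the high summed FPKM, in which Zic5, Foxd3, Pou3f1 and Grhl2 were also lowest of the day, and Otx2, Sall2 and Tcf15 highest. The part of this library's total in these values was not tested.

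From day 3 to day 4 Otx2 fell, from 65.0, 75.1 and 77.8 FPKM to 41.4, 26.4 and 20.4 FPKM. It was the only one of the 8 called, with 2.3% of all genes called and 1.38% called lower. The log2 difference was -1.33 (SE 0.29, limma, Benjamini-Hochberg adjusted p = 0.00227), but the adjusted p was 0.0632 with only these days fitted and 0.182 with the replicate block in that fit. The block by culture course over all days kept the call. Pou3f1 (-0.82), Sall2 (-0.74), Grhl2 (-0.64) and Tcf15 (-0.98) had differences under the size threshold at adjusted p from 0.000295 to 0.0165. Leaving out replicate 2 of day 3, or replicate 2 or 3 of day 4, took Tcf15 past the threshold, to -1.17, -1.10 and -1.06. Zic2 and Zic5 were level over this day, at differences of 0.14 and 0.06 with intervals from -0.31 to 0.59 and from -0.37 to 0.49.

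From day 4 to day 5 Zic2, Zic5 and Foxd3 fell past the size threshold, and Pou3f1 and Grhl2 fell to just short of it. Zic2 went from 62.7, 68.5 and 64.2 FPKM to 28.5, 34.5 and 29.1 FPKM. Zic5 went from 13.9, 19.2 and 13.2 FPKM to 5.08, 6.64 and 3.16 FPKM. Foxd3 went from 10.7, 14.9 and 10.4 FPKM to 2.05, 3.41 and 0.825 FPKM. In none of the 3 genes did the days overlap, as in 44% of all tested genes, and in each culture course the level dropped. With 7.77% of all genes called and 1.55% called lower, these 3 of the 8 were called lower, at log2 differences of -1.07 for Zic2 (SE 0.22, limma, Benjamini-Hochberg adjusted p = 0.000398), -1.49 for Zic5 (SE 0.21, adjusted p = 1.75e-06) and -2.14 for Foxd3 (SE 0.48, adjusted p = 0.000886).

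Markers of several other cell types moved over the same day. The sum of 5 primitive streak markers went from between 83.9 and 176 FPKM to between 419.8 and 666 FPKM, with 2 called higher and 1 lower. T, a factor of the streak and early mesoderm, rose from 59.0 ± 36.0 to 528 ± 124 FPKM (SD, n = 3 each). It made up most of the sum at day 5, and the streak markers did not rise as a set. Mean Eomes fell from 50.6 to 9.39 FPKM and mean Wnt3 from 10.7 to 5.25 FPKM, while the means of Mixl1 and Evx1 rose. The sum of 4 endoderm markers went from between 27.0 and 58.7 FPKM to between 73.2 and 122 FPKM. Of the 4 markers 3 were called higher and none lower. Foxa2, an endoderm and axial factor, made up most of the sum on both days and was not called. Its mean went from 41.0 to 81.6 FPKM. Sox17, a factor of definitive endoderm, rose from 0.0464 ± 0.0803 to 12.2 ± 3.03 FPKM (SD, n = 3 each). Of 8 neural progenitor markers 4 were called higher and none lower, with sums from 47.9 to 57.3 FPKM at day 4 and from 106 to 109 FPKM at day 5. The part of these cells in the fall of Zic2, Zic5 and Foxd3 was not tested.

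Mean Pou3f1 fell from 28.7 to 14.9 FPKM on this day and mean Grhl2 from 6.10 to 2.62 FPKM. Neither gene overlapped between the days, as in 44% of all tested genes. Pou3f1 (-0.91, limma, Benjamini-Hochberg adjusted p = 0.00135) and Grhl2 (-0.98, adjusted p = 5.54e-05) missed only the size threshold. Without replicate 2 of day 5 both passed it, at -1.01 and -1.05. Quantile normalization left Zic2 at -0.91 and took Grhl2 to -1.22. It also moved the share of higher genes among all called from 80.1% to 65.6%. Otx2, Sall2 and Tcf15 differed by -0.35, -0.08 and 0.27 and were not called.

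From day 5 to day 6 the factors parted. Zic2 had 20.9, 8.0 and 13.5 FPKM at day 6, against 28.5 to 34.5 FPKM at day 5. Zic5 had 2.76, 1.13 and 1.99 FPKM, against 3.16 to 6.64 FPKM. Tcf15 moved the other way, from 6.45, 9.67 and 12.0 FPKM to 31.3, 22.6 and 20.5 FPKM, and rose in each of courses B, C and D. With 4.96% of all genes called, 2.77% lower and 2.19% higher, Zic2 (-1.15, SE 0.22, limma, Benjamini-Hochberg adjusted p = 0.000296) and Zic5 (-1.0, SE 0.21, adjusted p = 0.000808) were called lower and Tcf15 (1.33, SE 0.28, adjusted p = 0.000769) higher.

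The calls of Zic2 and Zic5 rested on the spread shared by all groups. With only days 5 and 6 in the fit, the limma adjusted p was 0.0973 for Zic2 and 0.120 for Zic5, while Tcf15 was still called at 0.0369, and with the replicate block in that fit it was 0.207 for Zic2, 0.250 for Zic5 and 0.154 for Tcf15. The block by culture course over all days kept all 3 calls and added Foxd3, at -1.07 with a limma adjusted p of 0.00514. Without replicate 2 of day 6 the Zic2 difference was -0.83 and the Zic5 difference -0.79, both under the size threshold. Zic5, which stood at the threshold, was also under it without replicate 1 or replicate 2 of day 5, at -0.97 and -0.80. Pou3f1 (-0.96) passed the threshold without replicate 1 of day 5 (-1.04) and without replicate 1 (-1.24) or replicate 3 (-1.08) of day 6. Mean Sall2 rose from 18.5 to 27.5 FPKM between these days. Its difference of 0.55 (limma, Benjamini-Hochberg adjusted p = 0.00374) was under the size threshold.

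Otx2 came back at day 6 in some libraries. It rose from 19.5 to 57.3 FPKM in course B and from 17.8 to 58.7 FPKM in course D, but went from 30.2 to 26.1 FPKM in course C. The groups overlapped, and the log2 difference of 0.99 (SE 0.29, limma, Benjamini-Hochberg adjusted p = 0.0191) was just under the size threshold. Without replicate 2 of day 6, the library of course C, it was 1.37, and without replicate 2 of day 5 it was 1.22, both called. That day 6 library also had the lowest Pou3f1, Zic2, Zic5 and Grhl2 of its day. Across genes it correlated a little better with the mean of day 7 (Pearson r 0.967) than with that of day 5 (0.963), whereas replicates 1 and 3 stood nearer to day 5 (0.966 and 0.969) than to day 7 (0.964 and 0.961). The part of this difference in the Otx2 values was not tested.

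**Figure D3:**
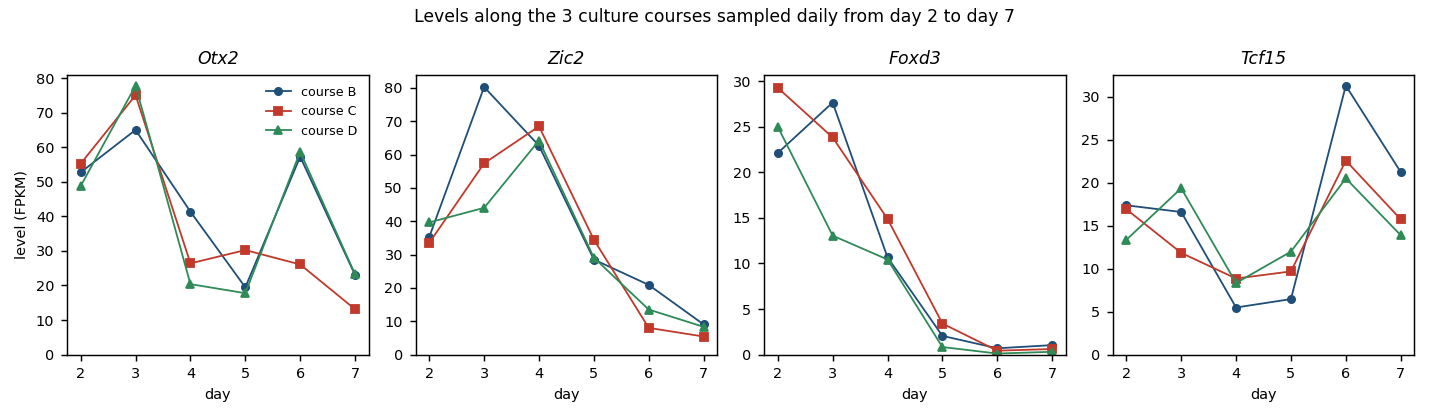
Levels in FPKM of Otx2, Zic2, Foxd3 and Tcf15 by day along culture courses B, C and D, 1 library per course and day joined by lines. Otx2 in courses B and D falls to 19.5 and 17.8 FPKM at day 5 and returns to 57.3 and 58.7 FPKM at day 6, while course C goes from 30.2 to 26.1 FPKM, and Tcf15 is highest at day 6 in all 3 courses.

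From day 6 to day 7 none of the 8 was called in limma, with 4.8% of all genes called. An unadjusted p under 0.05 was met by 37.9% of all tested genes and by 5 of the 8, Otx2 (-0.99), Zic2 (-0.85), Tcf15 (-0.84), Zic5 (-0.50) and Sall2 (0.28). Otx2 fell in each of the 3 courses, and the block by culture course called it, at -1.10 with a Benjamini-Hochberg adjusted p of 0.0223. It was also called without replicate 2 of day 6 (-1.36), and so was Zic2 (-1.18). Otx2 was called at -1.01 to -1.15 without replicate 1, 3 or 5 of day 7.

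Markers of paraxial mesoderm, where Tcf15 is known to act, moved in the same window. The summed level of its 8 listed markers was 0.623 to 2.62 FPKM at day 4, 41.7 to 115.9 FPKM at day 5, 83.0 to 99.5 FPKM at day 6 and 41.9 to 118.6 FPKM at day 7. From day 4 to day 5, 4 of 7 tested markers were called higher and none lower, and from day 5 to day 6, 3 were called higher and 3 lower. Meox1, a homeobox factor of somites, rose from 8.13 ± 7.09 to 59.2 ± 7.98 FPKM (SD, n = 3 each) between days 5 and 6, and Foxc2 from 0.685 ± 0.709 to 17.3 ± 4.18 FPKM. Tbx6, a factor of the unsegmented mesoderm, fell from 16.6 ± 11.5 to 2.56 ± 0.655 FPKM. Foxc2 was at 0 in all libraries of days 2 and 3, where Tcf15 stood at 13.7 ± 3.51 (SD, n = 5) and 15.9 ± 3.80 FPKM (SD, n = 3). Not all listed markers were at 0 there. The highest means were those of Mesp2, at 0.819 FPKM on day 2 and 1.06 FPKM on day 3. The part of these cells in the Tcf15 level was not tested.

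Day 7 against day 2 asks what the 5 days of aggregate culture did to the factors as a set. Here 6 of the 8 were called lower and none higher, with 26.1% of all genes called and 11% called lower. Foxd3 had 1.03, 0.425, 0.349, 0.603 and 0.301 FPKM at day 7, and its log2 difference was -4.03 (SE 0.37, limma, Benjamini-Hochberg adjusted p = 4.46e-11). Pou3f1 had 5.64 to 8.94 FPKM, a difference of -3.16 (SE 0.16, adjusted p = 6.0e-17), and stayed above the 1.66 to 2.25 FPKM of day 0.

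Zic5 (-2.84, to 0.665 to 1.42 FPKM), Zic2 (-2.32, to 5.41 to 9.03 FPKM) and Grhl2 (-2.17, to 1.82 to 3.15 FPKM) were called as well. Otx2 fell least of the 6, by 1.30 on the log2 scale (adjusted p = 8.11e-06, limma with Benjamini-Hochberg adjustment), to 23.0, 20.2, 35.2, 13.1 and 23.2 FPKM. Day 0 had 2.18 to 4.84 FPKM and day 2 had 48.8 to 62.5 FPKM. No call among the 6 was lost when any library of these days was left out.

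Sall2 and Tcf15 were not among them. Sall2 had 30.5, 33.3, 39.8, 32.7 and 32.2 FPKM at day 7, against 22.7 to 27.4 FPKM at day 2. Its log2 difference of 0.43 (interval from 0.22 to 0.65) was under the size threshold. Its lowest days after day 2 were 4 and 5, at 19.5 ± 0.440 and 18.5 ± 3.08 FPKM (SD, n = 3 each). Tcf15 had 8.46 to 21.2 FPKM at day 7 against 8.98 to 17.4 FPKM at day 2, a difference of -0.01 with an interval from -0.45 to 0.42, after its peak at day 6.

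Where a factor fell, relatives of the same family rose in part. Of 16 tested paralogues, 6 were called higher at day 7 than at day 2 and 2 lower, with a median difference of 0.58 against -2.25 for the 8 factors and 0.02 for all tested genes. Pou3f2 and Pou3f4, POU factors of neural progenitors, rose from 0.166 ± 0.0777 to 14.8 ± 4.52 FPKM and from 0.299 ± 0.303 to 8.80 ± 2.32 FPKM (SD, n = 5 each). In the same libraries Pou3f1 went from 72.8 to 7.33 FPKM. Foxd1 rose from 0.467 ± 0.283 to 18.3 ± 4.38 FPKM and Foxd2 from 0.0311 ± 0.0696 to 4.70 ± 1.64 FPKM, while Foxd3 fell to 0.542 ± 0.297 FPKM. Grhl1 fell with Grhl2, from 4.58 ± 0.469 to 0.733 ± 0.434 FPKM.

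The formative and epithelial lists fell over the same 5 days. Of the 14 formative genes outside the 8 factors, 11 were called lower and 1 higher, the latter being Sox4, a factor also used by neural progenitors, at 78.8 ± 6.83 against 15.0 ± 1.23 FPKM (SD, n = 5 each). Dnmt3l, a cofactor of DNA methylation, fell from 141 ± 47.1 to 1.77 ± 0.753 FPKM. Of 12 tested epithelial genes 6 were called lower and 1 higher. Cdh1, which encodes E-cadherin, fell from 258 ± 18.7 to 47.4 ± 8.80 FPKM and Esrp1 from 54.6 ± 4.62 to 10.7 ± 3.14 FPKM. Markers of the neural crest, in which Foxd3 is known to act, summed to 1.60 to 4.67 FPKM over 8 genes at day 7 and 7.77 to 10.3 FPKM at day 2. Of 7 tested, Msx1 alone was called, going from 7.89 ± 1.13 to 0.458 ± 0.358 FPKM (SD, n = 5 each). Without Msx1 the sum went the other way, from between 0.812 and 1.34 FPKM at day 2 to between 1.48 and 3.67 FPKM at day 7.

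EpiSC against day 2 sets a primed culture beside the formative one. Otx2, Zic2 and Zic5 were at least as high in EpiSC as at day 2, while Pou3f1, Grhl2 and Tcf15 were far lower. Pou3f1 had 4.55, 6.38 and 5.38 FPKM in EpiSC, near its level at day 7. Grhl2 had 0.556, 0.670 and 1.21 FPKM, below every library of days 0 to 7. Tcf15 had 3.76, 3.94 and 1.92 FPKM, also below every library of the course.

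Of the 8 factors 4 were called lower and none higher, with 19.1% of all genes called and 8.22% called lower. The log2 differences were -3.52 for Pou3f1 (SE 0.19, limma, Benjamini-Hochberg adjusted p = 4.69e-16), -3.19 for Grhl2 (SE 0.15, adjusted p = 3.77e-17), -1.81 for Tcf15 (SE 0.25, adjusted p = 2.43e-07) and -1.15 for Foxd3 (SE 0.43, adjusted p = 0.0215). Sall2 had 11.9, 15.6 and 18.3 FPKM against 22.7 to 27.4 FPKM at day 2, a difference of -0.67, under the size threshold.

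Otx2 reached its highest level of all groups in EpiSC, with 64.6, 106.3 and 131 FPKM, against 48.8 to 62.5 FPKM at day 2. Its difference from day 2 was 0.79 (interval from 0.26 to 1.33) and was not called, and without replicate 1 of EpiSC it was 1.08 and called. Zic2 was also highest in EpiSC, with 66.7, 80.3 and 70.5 FPKM, against 33.5 to 43.3 FPKM at day 2. The Zic2 difference of 0.90 (interval from 0.50 to 1.30) was under the size threshold. It passed with project as a covariate (1.03) and after quantile normalization (1.10), which also took Otx2 to 1.06. Zic5 had 12.6, 18.9 and 13.4 FPKM and overlapped day 2, at a difference of 0.12 (interval from -0.27 to 0.50). In the order of group means, EpiSC overlapped its nearest neighbour for Otx2 (day 3), for Zic2 (day 4) and for Zic5 (days 4 and 3).

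The Foxd3 call rested on the EpiSC libraries, which stood far apart. Replicate 1 had 38.7 FPKM, above all other libraries of the study, replicate 2 had 10.5 FPKM and replicate 3 had 2.05 FPKM. The day 2 libraries, at 16.6 to 29.3 FPKM, lay between them. Without replicate 3 of EpiSC the log2 difference was -0.21 (limma, Benjamini-Hochberg adjusted p = 0.642). The adjusted p was 0.181 with these groups only, 0.188 in project B only and 0.357 with the block by replicate number. That block pairs EpiSC and day 2 libraries by number alone, with no shared line, date or project, so its value says little about the call.

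The same 3 libraries were ordered alike in the streak and endoderm markers Foxa2, T and Eomes, though not in every marker of these lists. Foxa2, an endoderm and axial factor, had 23.1, 5.93 and 2.03 FPKM in replicates 1, 2 and 3, and T (Brachyury) 6.65, 1.57 and 0.401 FPKM. Eomes had 10.8, 4.06 and 2.94 FPKM. Over whole lists, the summed level in EpiSC ran from 4.57 to 22.6 FPKM for 5 streak markers (12.8 to 17.8 FPKM at day 2) and from 4.42 to 28.0 FPKM for 4 endoderm markers (0.669 to 1.32 FPKM at day 2), with Evx1 at 0 in 2 of the 3 EpiSC libraries. Otx2 ran in the opposite order. Their part in the Foxd3 and Otx2 values was not tested.

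**Figure D4:**
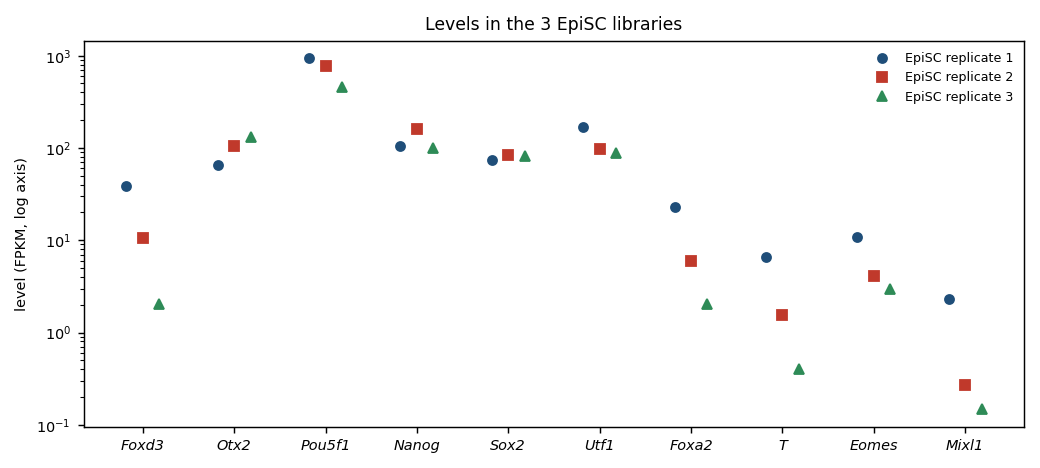
Levels in FPKM (log axis) in the 3 EpiSC libraries for Foxd3, Otx2, the pluripotency genes Pou5f1, Nanog, Sox2 and Utf1, and the endoderm and streak markers Foxa2, T, Eomes and Mixl1. Each symbol is 1 library. Foxd3 runs from 38.7 FPKM in replicate 1 to 2.05 FPKM in replicate 3 and Foxa2 from 23.1 to 2.03 FPKM, while Sox2 stays between 74.3 and 84.4 FPKM.

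The EpiSC libraries also carried fibroblast markers. Of 10 fibroblast markers 9 were called higher in EpiSC than at day 2 and none lower, and their sum, 310 to 505.4 FPKM, was 2.64% to 4.30% of the MEF median, against 0.109% to 0.157% at day 2. In MEF Otx2 was at 0 and Zic2 and Zic5 did not exceed 1.27 and 0.267 FPKM, low beside their level in EpiSC. The epithelial list was low in EpiSC, with 6 of 12 tested genes called lower and none higher. Rab25 stood at 0.658 ± 0.281 (SD, n = 3) against 18.5 ± 1.97 FPKM (SD, n = 5) and Cdh1 at 34.8 ± 6.89 against 258 ± 18.7 FPKM. Of the formative genes 10 of 14 were called lower and 1 higher, with a median difference of -2.15 against -0.91 for the 8 factors. Of the paralogues, Grhl1 alone was called, at 0.208 ± 0.0969 against 4.58 ± 0.469 FPKM.

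Fibroblasts served as cells outside the epiblast lineage, and all 8 factors were called lower there than at day 2, with 45.6% of all genes called and 21.2% called lower. Otx2 was listed at 0 in all 6 MEF libraries. Grhl2 was at 0 in 4 and Tcf15 in 5 of the 6, and Pou3f1 did not exceed 0.224 FPKM. Foxd3 had 0.792 to 2.64 FPKM (median 1.21), all above the day 6 libraries, and its range overlapped those of days 5 and 7. Sall2 kept a level of 6.86 to 9.88 FPKM (median 7.77), above all ESC libraries and below EpiSC, with a difference from day 2 of -1.52 (SE 0.10, limma, Benjamini-Hochberg adjusted p = 5.1e-15). The 6 libraries are 2 cultures, and all 8 calls held with the mean of each culture as 1 sample.

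Over the 7 group means of days 0 to 7, pairs of factors were alike to different degrees. As a description on log2(FPKM + 1), without a test, Pearson r was 0.97 between Zic2 and Zic5, 0.92 between Zic5 and Foxd3, 0.92 between Pou3f1 and Grhl2 and 0.91 between Otx2 and Sall2. It was 0.04 between Zic2 and Otx2 (0.70 over all 9 group means) and -0.43 between Foxd3 and Sall2 (-0.27 over all 9). The points share the cell line and, in part, the culture courses. Over all 9 group means, and among genes whose highest mean reached 10 FPKM, the most similar gene was Dmtf1 for Otx2 (0.97), Diexf for Pou3f1 (0.97), Nampt for Zic2 (0.99), Gpd2 for Zic5 (0.98), Helb for Foxd3 (0.98), Xpo5 for Grhl2 (0.98), Traf4 for Sall2 (0.99) and Zfp105 for Tcf15 (0.97). Nampt was also among the 3 nearest to Zic5. Their own levels moved less than the factors did, as with Dmtf1, which ran from 16.1 FPKM in MEF to 27.7 FPKM at day 3.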

How the data were processed

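The authors deposited 1 table of FPKM per gene and library. The submitters' processing notes name Cufflinks 2.2.1, Cuffdiff, cutadapt 1.4.1, HISAT2 2.0.4 and build mm9, with no order of use. The annotation, the scaling between libraries and whether counting used strand are not given in the sources used here. Per the labels' protocols, libraries were stranded mRNA libraries from total RNA. Fragment totals are unknown, so no counting intervals are given.

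Samples were grouped by title and source name. The 8 genes were found by symbol. Genes reaching 1 FPKM in 3 or more libraries were fitted with limma 3.58.1 in R 4.3.3 on log2(FPKM + 1), all 9 groups together with a variance trend, and p-values were adjusted over all 14595 genes by Benjamini-Hochberg. Calls needed an adjusted p under 0.05 and a difference of at least 1. The fits were tested on simulated data. The 8 genes and all lists were chosen with earlier results of these data known. From each list the 4 genes with the smallest adjusted p in day 2 against day 0, day 7 against day 2 or EpiSC against day 2 could be named (the values of a listed gene are not reported here), and for likeness the 3 genes with the highest r. Promoters came from RefSeq (GRCm38.p6), and strands from an annotation of the same build.

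Alternatives were other pseudocounts and filters, rescaling, 2 groups only, project terms, left-out libraries, culture means and replicate blocks. The pairing of libraries by culture course comes from the dates in their titles, which were read as shared culture courses. No label says so in words. The block by replicate number pairs libraries by number alone. Deviations of same-course libraries correlated at -0.319 to 0.327.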

Additional observations from a re-analysis of the deposited data

Results flagged for a closer look

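Among the 23 combinations of a gene and a group of 4 to 10 libraries that were examined, 2 held a library far from the others. The rule is set to flag about 1 in 20 by chance for normally spread values. That rate does not apply to these 2, since in MEF Zic5 was at 0 in 3 libraries and Tcf15 in 5. Zic5 stood at 0.267 FPKM in replicate 1 of MEF (passage 0), with the next library at 0.0912 FPKM. Tcf15 stood at 0.248 FPKM in replicate 3 of MEF (passage 1), with 0 in the other 5. Both levels lie far below those of day 2.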

How the results depend on the processing

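Of 1232 differences of the 8 genes under other settings, 1157 kept their direction and side of the threshold, 16 lost a call, 31 gained one and 28 changed sign with no call in either fit. A pseudocount of 0.1 FPKM raised the number of called genes to 3926 for day 2 against day 0, 796 for day 3 against day 2, 731 for day 4 against day 3, 2035 for day 5 against day 4, 1232 for day 6 against day 5, 1341 for day 7 against day 6 and 4449 for EpiSC against day 2, since it gives low genes larger differences. It called 6 of the 8 factors from day 5 to day 6 and 1 from day 6 to day 7. With 2 groups only, 168 genes and 0 of the 8 were called from day 3 to day 4, and 1 of the 8 from day 5 to day 6.

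With the replicate block by number, fitted on 2 groups, 1 gene was called from day 2 to day 3, 0 from day 3 to day 4 (0 of the 8), 0 from day 5 to day 6 (0 of the 8) and 417 from day 6 to day 7. For days 3 to 6 the numbers are those of the dated courses. The block by culture course called 1 of the 8 from day 6 to day 7, as did project as a covariate, and quantile normalization called 2. The cause was not tested.

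Leaving out 1 library in turn gave 244 to 446 called genes from day 2 to day 3, the highest without replicate 3 of day 3. It gave 1 to 2 of the 8 called from day 3 to day 4, 3 to 5 from day 4 to day 5 and 0 to 2 from day 6 to day 7. Differences that changed sign were all uncalled. Without 1 library, day 2 against day 0 ran from -0.0991 to 0.0457 for Zic2, from -0.176 to 0.0787 for Foxd3 and from -0.0318 to 0.369 for Tcf15. Day 3 against day 2 ran from -0.0552 to 0.281 for Zic5 and from -0.41 to 0.11 for Foxd3. Day 4 against day 3 ran from -0.12 to 0.21 for Zic5 and from -0.0599 to 0.366 for Zic2. Day 5 against day 4 ran from -0.202 to 0.0156 for Sall2. Day 7 against day 6 ran from -0.37 to 0.29 for Pou3f1 and from -0.0270 to 0.275 for Foxd3. Day 7 against day 2 ran from -0.17 to 0.13 for Tcf15, and EpiSC against day 2 from -0.0535 to 0.223 for Zic5. Other sign changes were Foxd3 at day 2 against day 0 after quantile normalization (0.000645), Zic2 there with project as a covariate (0.0411), Tcf15 under the course block at day 3 against day 2 (-0.0324) and day 7 against day 2 (0.0390), and Pou3f1 at day 7 against day 6 after quantile normalization (-0.11), with project as a covariate (-0.0185) and under the course block (-0.0460). Quantile normalization moved the median of all genes by -0.12 in MEF against day 2. Depth limits levels near 0, which were not read as absence.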
